A study of Homo sapiens with 2 samples.

Results

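Respiratory complex I, the NADH:ubiquinone oxidoreductase of the inner mitochondrial membrane, was followed gene by gene in the transcriptome of HCC1954 cells. Members were the genes whose symbol is NDUF followed by A, B, C, S, V, AB or AF, a number and at most 1 further letter, with pseudogenes, divergent and antisense transcripts left out. The rule found 46 of the 62699 genes with counts: 7 core subunits, 30 accessory subunits, 8 assembly factors and NDUFA4, a protein named after complex I that is now placed in complex IV and is counted apart. Counts of members by ratio or call below are over the other 45 genes.

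HCC1954 is an established human breast cancer line with amplified ERBB2, the gene of the HER2 receptor. RNA was sequenced from 1 library with the genotype label ASO-NC and 1 with ASO-1235. The series title names LINC01235 as the RNA under study, and an ASO is an antisense oligonucleotide. Dose, time after treatment and any further agent are not stated in the labels, and both libraries come from the same cell line. The count of LINC01235 was 1337 with ASO-NC and 0 with ASO-1235.

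Complex I takes electrons from NADH in its hydrophilic arm, passes them along a chain of iron-sulfur clusters to ubiquinone, and couples this to proton pumping by its membrane arm. The core subunits are conserved from bacteria and carry the catalysis. Those of the hydrophilic arm are encoded in the nucleus and those of the membrane arm in mitochondrial DNA, and the accessory subunits, all nuclear, surround and stabilise them. Assembly factors bind intermediates, insert cofactors or modify subunits and are absent from the finished enzyme. In tumour cells complex I regenerates NAD+ that aspartate synthesis needs, besides driving ATP production.

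The libraries held 48092494 counts (ASO-NC) and 37916307 counts (ASO-1235), and the 46 members, NDUFA4 included, took 0.209% and 0.195% of them. Ratios are ASO-1235 over ASO-NC after scaling by TMM (trimmed mean of M values), and levels are given in CPM, counts relative to the scaled library size. With 1 library per group there is no replicate spread and no test, so each difference is between these libraries. Every ratio has an exact 95% interval that covers counting error only. Even numbers made up 67.5% and 64.0% of the counts between 1 and 1000, as when both mates of a pair are counted, so intervals on halved counts are used for calls of 1.2-fold. Intervals printed below are on the deposited counts unless halved counts are named. They are too narrow, even for counting error, where both mates were counted. Of the marker genes, ERBB2 stood at 4890 and 4600 CPM, and all 6 of the luminal epithelial and HER2 list reached 1 CPM. Of the lists for other cell types, 1 of 6 immune genes (LYZ), 1 of 6 fibroblast genes (COL1A1) and 1 of 4 endothelial genes (VWF) did. Their summed levels were 2.24 and 1.53, 45.4 and 40.6, and 8.12 and 7.36 CPM in the ASO-NC and ASO-1235 libraries. The pan-leukocyte gene PTPRC had 0 and 8 counts, the pericyte and fibroblast receptor gene PDGFRB 0 in both, and the endothelial gene PECAM1 0 and 10.

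Of the 35 nuclear subunits at 1 CPM, 28 had a ratio below 1. Their interval on halved counts lay below 1 for 20 and above 1 for 4, against 25.1% and 21.3% of all genes tested. Of the 8 NDUFAF assembly factors, 5 had a ratio above 1, and the interval on halved counts held 1 for 6. Of 45 members, 43 reached 1 CPM in at least 1 library, and 31 of these had a ratio below 1, where 52.5% of the 14291 genes tested did. With a change of at least 1.2-fold and an interval on halved counts that excluded 1, 16 members were lower, against 13.9% of all genes tested, and 5 were higher, against 13.6%. At 1.5-fold, 1 member was lower (NDUFA3; background 3.33%) and 1 was higher (NDUFV2; background 5.77%). The 1.2-fold counts depended on the scaling: with libraries scaled by their total count, 5 members were lower (6.50% of all genes tested under that scaling) and 6 higher (21.7%). At 1.5-fold 1 was then lower (1.98%) and 3 were higher (8.61%). That scaling moved the median log2 ratio of all genes tested from −0.02 to 0.09. Lower transcript levels per cell and fewer cells with the transcript cannot be told apart in bulk RNA.

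**Figure D1:**
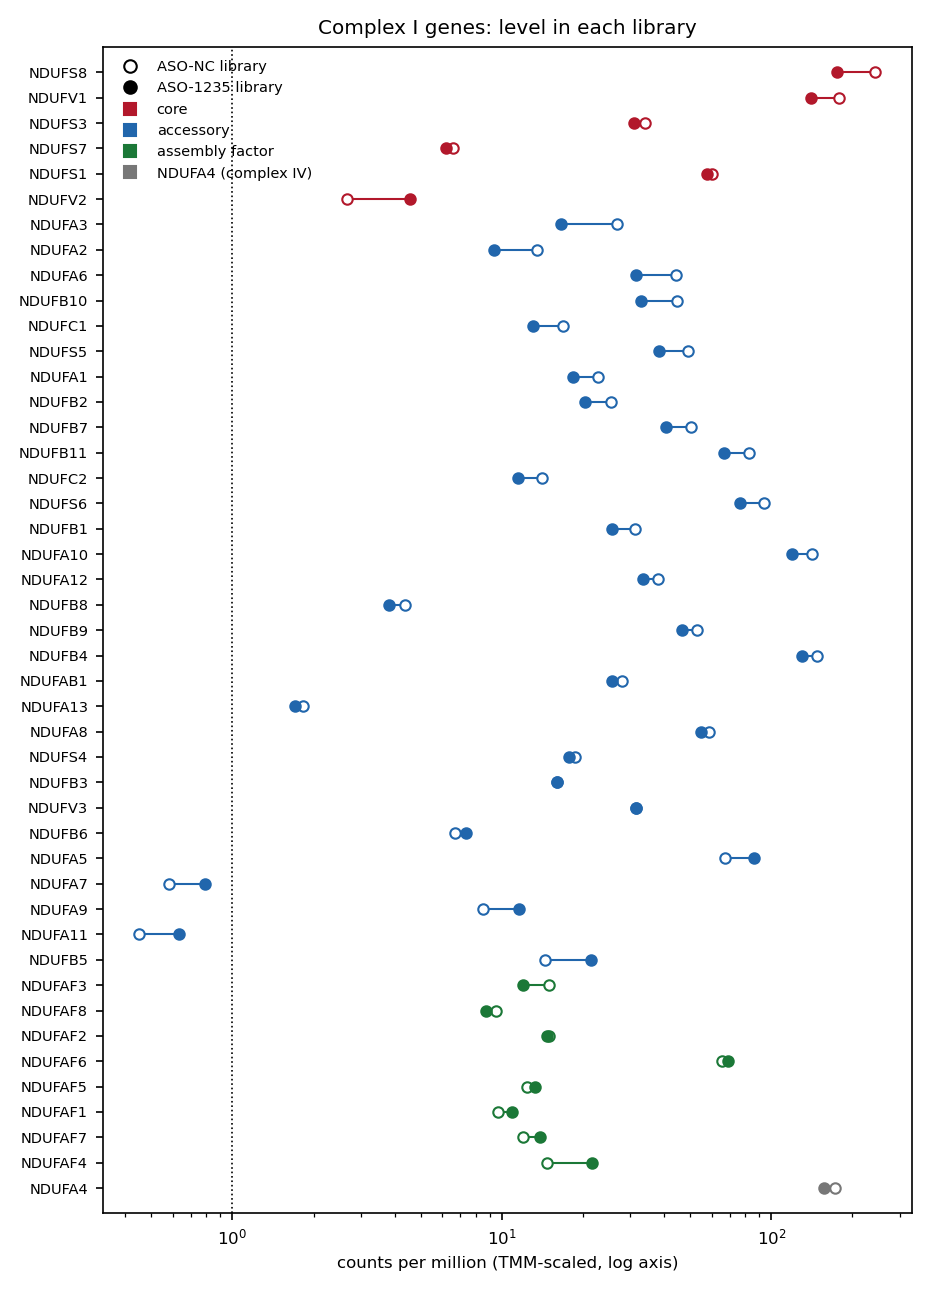
Level of members in CPM (log axis) in the ASO-NC library (open circles) and the ASO-1235 library (filled circles), grouped as core, accessory and assembly genes and ordered by ratio within each. The dotted line marks 1 CPM, which NDUFA7 and NDUFA11 did not reach in either library, and the core subunit genes run from 2.67 CPM (NDUFV2) to 243 CPM (NDUFS8) in the ASO-NC library.

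The classes differed in their medians. The 7 core subunits had a median log2 ratio of −0.13 (range −0.47 to 0.78) with 6 of 7 ratios below 1. The 28 accessory subunits at 1 CPM had a median of −0.23 (−0.69 to 0.58) with 22 of 28 below 1, and the 8 assembly factors a median of 0.09 (−0.32 to 0.55) with 3 of 8 below 1. All genes tested had a median of −0.02, with the middle 50% between −0.21 and 0.19. The assembly median was above 0 and the core and accessory medians were below 0 under every scaling tried, although that of the core subunits was −0.03 with scaling by total count. Summed over a class, and so weighted toward abundant genes, the core subunits stood at 683 CPM (exact Poisson interval 675 to 690) and 548 CPM (540 to 555), a ratio of 0.802 (0.788 to 0.816). The accessory subunits summed to 1152 and 1010 CPM, a ratio of 0.876 (0.865 to 0.888). The assembly factors summed to 154 and 164 CPM, a ratio of 1.07 (1.03 to 1.11). The classes come from the same pair of libraries, so the difference between them was not tested.

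**Figure D2:**
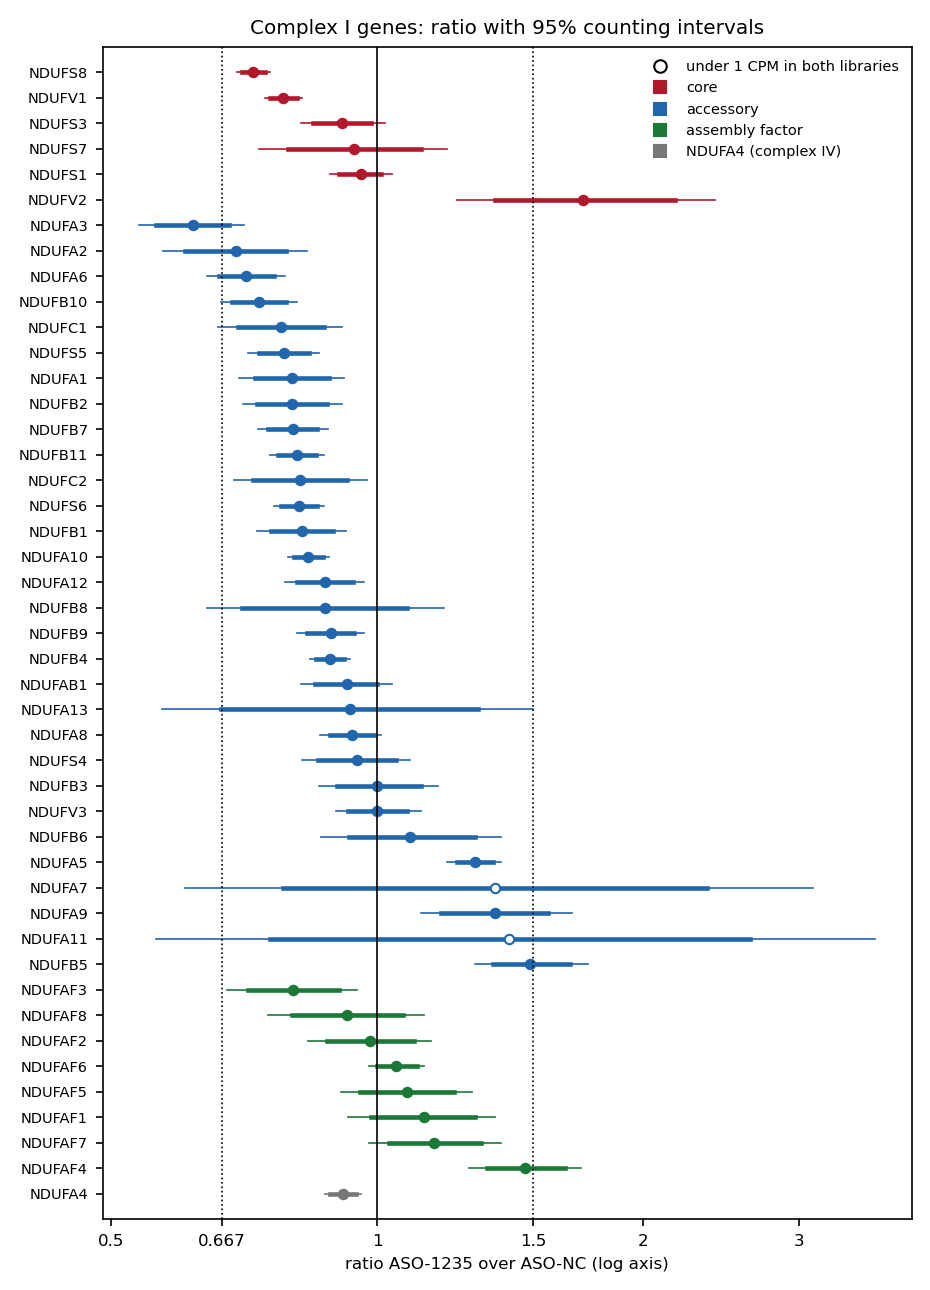
Ratio ASO-1235 over ASO-NC (log axis) of members, with thick bars for 95% counting intervals on the deposited counts and thin bars for those on halved counts. Dotted lines mark 1.5-fold, and NDUFA3 (0.618) and NDUFV2 (1.71) are the members beyond them with an interval that excludes 1, while NDUFB5 (1.49) and NDUFAF4 (1.47) lie just inside.

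Among the core subunits, NDUFS8 had the highest level per kb of merged exons (53.7 and 38.9 CPM per kb) and the lowest ratio. Its product carries iron-sulfur clusters on the path toward the quinone site, and the gene lies on chromosome 11 from 68030617 to 68036644 on the plus strand (GRCh38, GENCODE 29). Its count was 11277 (243 CPM) with ASO-NC and 6910 (176 CPM) with ASO-1235, which gives 0.724 (0.702 to 0.746) as the ratio. NDUFV1, which binds NADH and the flavin that accepts its electrons, had 8315 and 5510 counts, a ratio of 0.783 (0.756 to 0.810). Both were lower in the ASO-1235 library, with intervals on halved counts that excluded 1.

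NDUFS3, NDUFS7 and NDUFS1 were closer to 1. NDUFS3, a scaffold of the quinone module, had 1574 and 1216 counts, a ratio of 0.913 (0.846 to 0.984). Its interval on halved counts reached 1.02. NDUFS7, which lies at the quinone site, had 305 and 243 counts, a ratio of 0.941 (0.792 to 1.12). NDUFS1, the large iron-sulfur subunit of the NADH module, had 2792 and 2264 counts, a ratio of 0.958 (0.906 to 1.01). NDUFS1 and NDUFS7 lay slightly above 1 with scaling by total count, at 1.03 and 1.01.

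NDUFV2 went the other way. It encodes the iron-sulfur subunit beside NDUFV1 in the NADH module and lies on chromosome 18 from 9102630 to 9134345 on the plus strand. Its count was 124 (2.67 CPM) with ASO-NC and 180 (4.58 CPM) with ASO-1235, a ratio of 1.71 (1.36 to 2.17; 1.23 to 2.41 on halved counts). It had the fewest counts of the core genes in both libraries. Its pseudogene NDUFV2P1 had 138 and 110 counts, a ratio of 0.942 (0.726 to 1.22). The pseudogene was thus credited with about as many reads as the gene in the ASO-NC library and with fewer in the ASO-1235 library. The antisense gene NDUFV2-AS1 had 95 and 76 counts, a ratio of 0.945 (0.690 to 1.29). Reads from near-identical copies can be split or dropped in counting, so the NDUFV2 value is uncertain. In the annotation used for positions, NDUFV2-AS1 shared no exon bases with NDUFV2. The only gene that did was a noncoding gene on the same strand. It covered 771 bases, 28.4% of the exon bases of NDUFV2, and had 0 counts in both libraries. The annotation release and strand setting behind the counts are not stated. The part of the pseudogene or of other genes at this place in the NDUFV2 ratio was not tested.

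Of the 28 accessory subunits at 1 CPM, 13 passed 1.2-fold downward and 3 upward, against 13.9% and 13.6% of all genes tested. NDUFA3, a small membrane-arm subunit, lies on chromosome 19 from 54102728 to 54109257 on the plus strand. It had 1245 counts (26.8 CPM) and 651 counts (16.6 CPM), at 0.618 (0.561 to 0.680) the lowest ratio of all members. NDUFA2, a subunit of the NADH module, had 627 and 367 counts. Its ratio of 0.691 (0.606 to 0.788) did not reach 1.5-fold, and it was the member closest outside that threshold on the lower side. NDUFA6, an LYR-motif protein bound to the acyl carrier subunit, had 2052 and 1235 counts, a ratio of 0.711 (0.662 to 0.763). NDUFB10, of the distal membrane arm, had 2068 and 1286 counts, a ratio of 0.735 (0.685 to 0.788). NDUFC1, of the membrane arm, had 782 and 515 counts, a ratio of 0.778 (0.695 to 0.871). Those 5 genes stood between 13.5 (NDUFA2) and 44.6 CPM (NDUFB10) in the ASO-NC library, well above the 1 CPM minimum.

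The highest accessory subunits were NDUFB5, NDUFA9, NDUFA5, NDUFB6 and NDUFB3. NDUFB5, of the distal membrane arm, lies on chromosome 3 from 179604690 to 179627647 on the plus strand and had 669 counts (14.4 CPM) and 845 counts (21.5 CPM). Its ratio of 1.49 (1.35 to 1.65) lay just under 1.5-fold, and was 1.51 (1.37 to 1.68) when TMM was computed over genes at 1 CPM alone. NDUFA9, at the junction of the arms, had 395 and 454 counts, a ratio of 1.36 (1.18 to 1.56). NDUFA5, which joins the quinone module early in assembly, had 3118 and 3402 counts (67.2 and 86.6 CPM), a ratio of 1.29 (1.23 to 1.35). It had the most counts of the 4 subunit genes higher at 1.2-fold. NDUFB6 and NDUFB3, both of the membrane arm, had ratios of 1.09 (0.929 to 1.29) and 1.0 (0.899 to 1.12), with intervals that held 1.

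The remaining accessory genes at 1 CPM had ratios from 0.784 (NDUFS5) to 1.0 (NDUFV3). NDUFAB1, the mitochondrial acyl carrier protein that is a subunit of both arms, had 1294 and 1011 counts, a ratio of 0.923 (0.849 to 1.0). By position in the enzyme, the 15 genes of the hydrophilic arm at 1 CPM had a median log2 ratio of −0.13 with 5 lower and 3 higher at 1.2-fold. The 19 nuclear genes of the membrane arm at 1 CPM had a median of −0.28 with 10 lower and 1 higher. Lower were 33.3% (hydrophilic) and 52.6% (membrane), against 13.9% of all genes tested. Higher were 20.0% and 5.26%, against 13.6%. Summed over the arms the ratios were close, at 0.847 (0.835 to 0.859) and 0.848 (0.835 to 0.861). The hydrophilic arm holds the higher genes NDUFV2, NDUFA9 and NDUFA5, and the membrane arm NDUFB5. NDUFA11 and NDUFA7, under 1 CPM in both libraries, had 21 and 25 counts and 27 and 31 counts, with ratios of 1.41 (0.756 to 2.64) and 1.36 (0.783 to 2.36) that say little at this depth. The member just above the minimum was NDUFA13, with 85 and 67 counts (1.83 and 1.71 CPM).

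Assembly factors were spread around 1. NDUFAF4, which acts early with NDUFAF3 on the quinone module, is on the minus strand of chromosome 6, from 96889313 to 96897881. It had 684 counts (14.7 CPM) and 850 counts (21.6 CPM), a ratio of 1.47 (1.33 to 1.63). NDUFAF3, its partner, had 696 and 473 counts, a ratio of 0.803 (0.713 to 0.904). The pair thus had about the same level in the ASO-NC library and lay on opposite sides in the ASO-1235 library. They were the single assembly genes past 1.2-fold upward and downward. This is 12.5% of the class each way, close to the 13.9% lower and 13.6% higher of all genes tested.

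The other assembly factors had intervals on halved counts that held 1. NDUFAF7, a methyltransferase of the matrix, was at 1.16 (1.03 to 1.31). NDUFAF1, of the assembly complex of the membrane arm, was at 1.13 (0.984 to 1.29), and NDUFAF5, which hydroxylates NDUFS7, at 1.08 (0.956 to 1.22). NDUFAF6, an assembly factor for the ND1 module with 3045 and 2715 counts, was at 1.05 (1.0 to 1.11). NDUFAF2, a paralog of NDUFA12, was at 0.980 (0.876 to 1.10), and NDUFAF8, the stabilising partner of NDUFAF5, at 0.924 (0.800 to 1.07). NDUFA4 of complex IV had 7982 and 6179 counts, a ratio of 0.914 (0.884 to 0.945). Its homolog NDUFA4L2, which the rule does not take, had 2 counts in each library.

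Promoters are shown for the core gene with the lowest ratio, the lowest and the highest member and the highest assembly factor, so that genes that went opposite ways can be set side by side. The sequences are from RefSeq (GRCh38.p14), 5′ to 3′, from 250 bases before to 30 bases after the annotated start, and 39 of the 46 members matched an entry. Capitals mark letters that match, on either strand, a motif of the respiratory factor NRF1, CCGGAAG (the core of the ETS family, to which GABPA belongs) or AANATGGC (a YY1 motif). N stands for any base. The motifs were chosen after the data were seen.
NDUFS8 promoter, chr11:68030431-68030710, plus strand: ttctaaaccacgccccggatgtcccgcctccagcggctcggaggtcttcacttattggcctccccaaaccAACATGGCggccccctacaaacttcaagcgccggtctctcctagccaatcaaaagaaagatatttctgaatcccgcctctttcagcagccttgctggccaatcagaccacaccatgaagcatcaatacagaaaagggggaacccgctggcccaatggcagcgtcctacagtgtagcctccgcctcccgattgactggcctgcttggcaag
NDUFA3 promoter, chr19:54102605-54102884, plus strand: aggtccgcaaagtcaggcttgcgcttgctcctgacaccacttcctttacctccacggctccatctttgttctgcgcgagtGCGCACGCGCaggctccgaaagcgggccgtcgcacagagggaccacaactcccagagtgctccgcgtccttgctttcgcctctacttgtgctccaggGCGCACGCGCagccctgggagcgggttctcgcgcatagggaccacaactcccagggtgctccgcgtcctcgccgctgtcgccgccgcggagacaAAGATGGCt
NDUFV2 promoter, chr18:9102449-9102728, plus strand: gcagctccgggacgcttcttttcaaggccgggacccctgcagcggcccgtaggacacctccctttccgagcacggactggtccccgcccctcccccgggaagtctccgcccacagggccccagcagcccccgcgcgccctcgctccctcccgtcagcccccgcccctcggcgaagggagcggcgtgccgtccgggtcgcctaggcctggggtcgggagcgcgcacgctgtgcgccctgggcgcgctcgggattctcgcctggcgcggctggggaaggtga
NDUFAF4 promoter, chr6:96897862-96898141, minus strand: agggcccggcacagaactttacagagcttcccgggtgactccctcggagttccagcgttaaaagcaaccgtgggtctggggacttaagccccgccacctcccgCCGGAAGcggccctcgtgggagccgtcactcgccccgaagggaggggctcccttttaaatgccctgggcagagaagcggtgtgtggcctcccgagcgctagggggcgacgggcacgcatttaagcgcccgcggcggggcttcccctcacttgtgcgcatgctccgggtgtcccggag

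In these windows NDUFA3 holds 2 matches to the NRF1 letters and 1 to the YY1 letters, NDUFS8 1 to the YY1 letters, NDUFAF4 1 to the ETS letters and NDUFV2 none. Over the whole windows, which run to 50 bases after the start, the YY1 letters were found in 12 of 39 member promoters (30.8%) and in 6.82% of 27305 promoters of the same length. The NRF1 letters were in 7 of 39 (17.9%) against 6.28%, and the ETS letters in 6 of 39 (15.4%) against 10.7%. NDUFV2 is among the 12 with the YY1 letters, through a match more than 30 bases after its start. Members with and without a motif had similar median log2 ratios: −0.13 and −0.15 for YY1 (11 and 26 genes tested), −0.14 and −0.13 for NRF1 (6 and 31), and −0.12 and −0.18 for ETS (6 and 31). A match is a run of letters and does not show binding.

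The ratio of the members moved with the GC content of their transcripts, as it did over all genes. All genes tested had a median log2 ratio of 0.18 in the lowest of 5 equal bins of GC content and −0.20 in the highest. Across the 35 nuclear subunits at 1 CPM, Spearman's rho between GC content and log2 ratio was −0.56, as a description of points that share both libraries. The 18 subunits at or above the subunits' median GC content had a median of −0.31 with 11 lower and 0 higher at 1.2-fold. The 17 below it had a median of −0.12 with 4 lower and 4 higher. Over all genes tested, 13.9% were lower and 13.6% higher. NDUFS8 (57.9% GC), NDUFV1 (59.4%) and NDUFA3 (56.4%) were in the first set, and NDUFV2 (41.3%), NDUFB5 (39.8%) and NDUFA5 (35.0%) in the second.

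Within these bins of GC content the subunits still lay mostly below other genes: 6 of 9, 7 of 8, 7 of 9 and 4 of 6 were under the median of all genes in the bins from the second lowest to the highest, and 1 of 3 in the lowest. With a trend on GC content and transcript length removed over all genes, the medians were −0.16 for core, −0.16 for accessory and 0.05 for assembly genes, against −0.04 for all genes tested. The core and accessory subunits thus had the same median after this step. Ratios were then below 1 for 4 of 7 core and 22 of 28 accessory subunits, against 56.4% of all genes tested. The subunits at or above the subunits' median GC content then had a median of −0.16, and those below it −0.17. With the trend removed, NDUFA3 was at 0.699 (0.635 to 0.769) and no longer past 1.5-fold, and NDUFS8 at 0.804 (0.780 to 0.829). NDUFB5 was at 1.32 (1.19 to 1.47) and NDUFAF4 (36.3% GC) at 1.26 (1.14 to 1.40). NDUFAF3 (64.0% GC) moved from 0.803 to 0.921 (0.818 to 1.04), with an interval that held 1. NDUFA5 moved to 1.06 (1.01 to 1.12) and NDUFB7, from 0.802, to 0.948 (0.889 to 1.01), whereas NDUFV2 stayed past 1.5-fold at 1.61 (1.27 to 2.04). NDUFS1 moved away from 1, from 0.958 to 0.827 (0.782 to 0.875). NDUFS3 was then at 1.01 (0.939 to 1.09) and NDUFS7 at 1.06 (0.888 to 1.25). By arm, the medians with the trend removed were −0.15 (hydrophilic) and −0.21 (membrane), closer to each other than before this step.

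**Figure D3:**
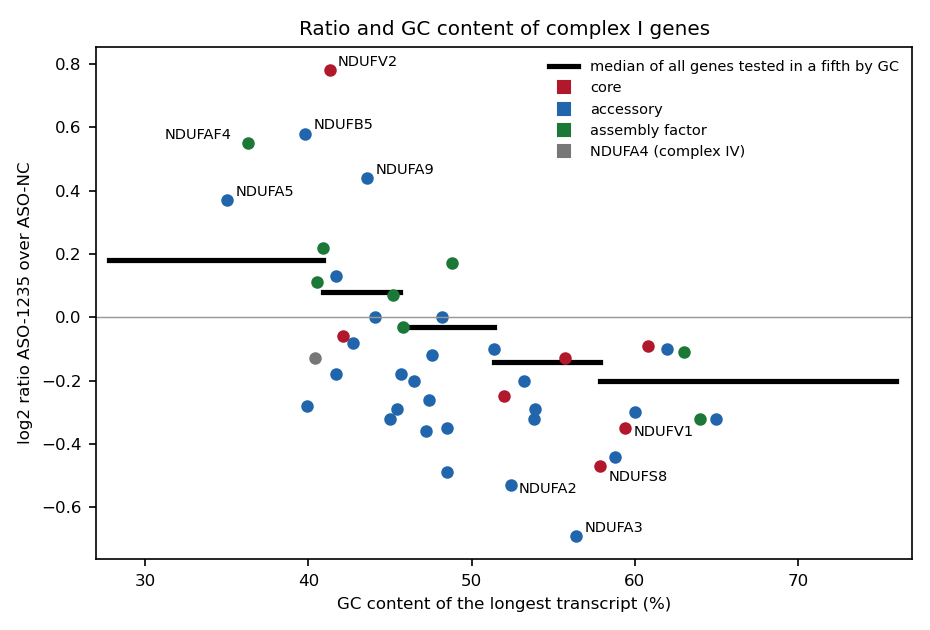
Log2 ratio of each member at 1 CPM against the GC content of its longest transcript in percent, with black bars for the median of all genes tested in each of 5 bins by GC content (0.18 in the lowest, −0.20 in the highest). The highest members (NDUFV2, NDUFB5, NDUFAF4, NDUFA9, NDUFA5) lie at low GC content, and most subunits lie under the bar of their bin.

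Levels can be compared between genes only per length, here as CPM per kb of merged exons in the ASO-NC library. The subunits are each present in a single copy per complex, apart from NDUFAB1, yet their transcripts ran from 0.0935 (NDUFA11) to 95 CPM per kb (NDUFB7). The range depended on the length used. Per kb of the principal transcript it ran from 0.839 (NDUFA11) to 307 (NDUFS8), with NDUFB7 at 95. Genes that share exon bases with another coding gene on the same strand, such as a readthrough gene, were low on the scale of merged exons. The 9 such subunits had a median of 2.19 CPM per kb, and the 28 others a median of 16.7. On the length of the principal transcript the medians were 5.59 and 35.3. NDUFA11, NDUFA7, NDUFA13 and NDUFA9 of the 9 were under 1 CPM per kb (0.0935, 0.412, 0.676 and 0.819), and the highest was NDUFS3 at 9.24. Of the 28 others, NDUFS7 (0.872) and NDUFV2 (0.985) alone were under 1 on merged exons. Per kb of the principal transcript they were at 6.32 and 2.87, and NDUFS1 (5.09) and NDUFB6 (4.92) were then lower than NDUFS7. NDUFS7 shares 49.1% of its exon bases with other genes, all of them noncoding and on the opposite strand. NDUFV2 shares 28.4%, with a noncoding gene on the same strand.

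The genes over these exons had varied counts. Those over NDUFA11 and NDUFB8 had 0 in both libraries, and that over NDUFA7 had 0 and 2. Over NDUFA9 lie 2, with 4 and 0 and with 0 and 2 counts. Over NDUFA13 lie 1 with 24 and 22 counts, beside 85 and 67 of NDUFA13 itself, and YJEFN3 with 504 and 370. PTPMT1, which shares exon bases with NDUFS3, had 269 and 188 counts. How reads in shared exons were treated in counting is not given in the sources used here, and the part of the overlap in these low levels was not tested. The median log2 ratios of the 2 sets were −0.20 over the 7 at 1 CPM and −0.22 over the 28, and −0.05 and −0.17 with the GC and length trend removed. The difference was not tested. Overlaps were taken from GENCODE 29, which may not be the release the counts were made with. The divergent transcript NDUFV1-DT, which shares 207 exon bases with NDUFV1 on the opposite strand, had 6 and 31 counts, a ratio of 6.10 (2.51 to 17.9), but stayed under 1 CPM in both libraries.

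**Figure D4:**
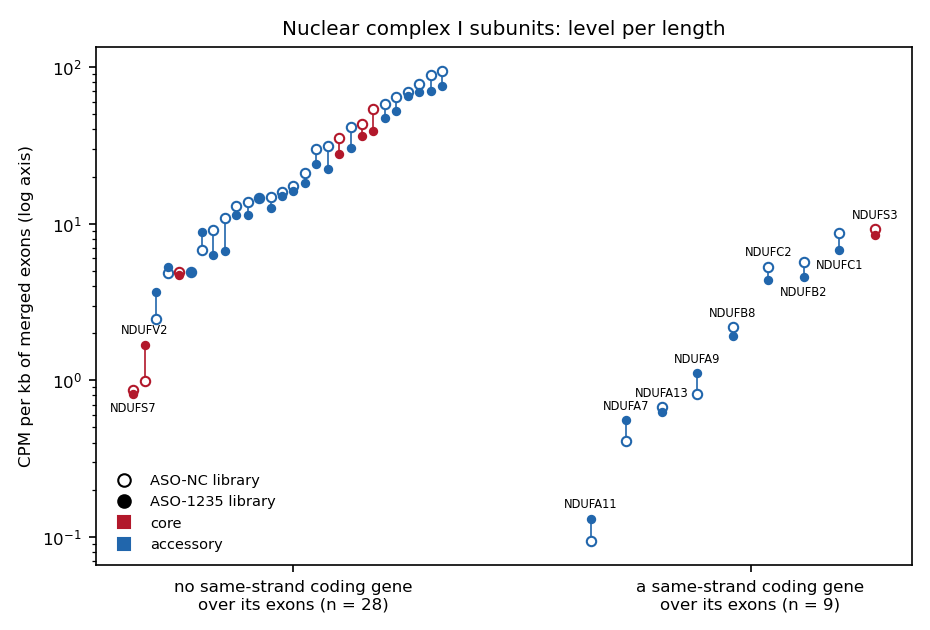
CPM per kb of merged exons (log axis) of the 37 nuclear subunits in the ASO-NC library (open circles) and the ASO-1235 library (filled circles), split by whether a coding gene on the same strand shares exon bases with them. Medians in the ASO-NC library were 16.7 (28 genes) and 2.19 (9 genes). NDUFV2 and NDUFS7 are the lowest of the first set on merged exons, which is not so for NDUFS7 on the principal transcript.

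The 7 subunits encoded in mitochondrial DNA all had ratios below 1. They form the core of the membrane arm and are cut from long transcripts of the mitochondrial genome. MT-ND4, with the most counts of the 7, had 1335839 and 989319 counts, a ratio of 0.875 (0.873 to 0.877). The lowest was MT-ND4L at 0.842 (0.836 to 0.849), and the highest was MT-ND6, transcribed from the opposite strand, at 0.894 (0.887 to 0.901). Their median log2 ratio was −0.20, and their range of −0.25 to −0.16 was narrower than that of the nuclear subunits, −0.69 to 0.78. They summed to 72854 and 63187 CPM, a ratio of 0.867 (0.866 to 0.869), beside 0.849 (0.840 to 0.858) for the 37 nuclear subunits. The interval of each sum excluded 1, and both covered counting error only.

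Of 16 further assembly factors, all at 1 CPM, 10 had ratios below 1, with a median log2 ratio of −0.07. At 1.2-fold, 1 passed each way (6.25%), against 13.9% lower and 13.6% higher of all genes tested. DMAC1, a factor for the distal membrane arm, was the highest (288 and 337 counts), at 1.38 (1.18 to 1.62). FOXRED1, a flavoprotein needed for assembly, was at 0.794 (0.735 to 0.857), and TMEM126A was at 0.797 (0.672 to 0.944). The interval of TMEM126A on halved counts held 1 (0.624 to 1.01). OXA1L, the insertase of the inner membrane, had the most counts (12591 and 9537), at 0.895 (0.871 to 0.919). The listed proteins of the membrane-arm assembly complex besides NDUFAF1 ran from ACAD9 at 0.923 (0.874 to 0.975) to TIMMDC1 at 1.11 (1.05 to 1.19). Between them were COA1 at 0.936 (0.891 to 0.983), ECSIT at 0.956 (0.892 to 1.02), TMEM186 at 1.06 (0.874 to 1.29) and TMEM126B at 1.07 (0.980 to 1.18). The interval of COA1 on halved counts held 1.

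Iron-sulfur cluster supply, on which the hydrophilic arm depends, had a median of −0.09 over 12 genes at 1 CPM of 13. At 1.2-fold, 1 was lower (8.33%) and 2 were higher (16.7%), against 13.9% and 13.6% of all genes tested. NFS1, the cysteine desulfurase that provides the sulfur, had 969 and 654 counts, a ratio of 0.797 (0.721 to 0.881). ISCA1, a scaffold protein for later clusters, was at 1.31 (1.2 to 1.42). These genes thus lay on opposite sides of 1.

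Regulators of respiratory gene transcription had a median of 0.20 over 14 genes. At 1.2-fold, 0 were lower and 5 (35.7%) higher, against 13.9% and 13.6% of all genes tested. Their intervals on halved counts lay above 1 for 6, held 1 for 6 and lay below 1 for 2. Over all genes tested, 21.3% lay above 1 and 25.1% below. Beyond 1.5-fold was PPARGC1A, the coactivator PGC-1alpha, from 553 and 718 counts, at 1.53 (1.37 to 1.72). TFAM, the packaging and transcription factor of mitochondrial DNA, had 2205 and 2734 counts, a ratio of 1.46 (1.38 to 1.55). TFB2M, an initiation factor, was at 1.29 (1.21 to 1.37). POLRMT, the mitochondrial RNA polymerase, was the lowest at 0.867 (0.802 to 0.938), and NRF1 was at 0.963 (0.875 to 1.06). This list also had low GC content (median 42.5%), and its median was 0.09 with the GC and length trend removed.

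Nuclear genes of complexes II to V had a median close to that of the complex I subunits. Their median was −0.21 over 38 genes, with 35 ratios below 1, 12 lower and 1 higher at 1.2-fold, and the median of the 35 nuclear subunits at 1 CPM was −0.20 with 28 below 1. Past 1.5-fold were ATP5ME and ATP5MF of the ATP synthase, at 0.365 (0.252 to 0.519) from 136 and 42 counts and at 0.659 (0.620 to 0.700) from 2974 and 1659 counts. The highest was SDHD of complex II at 1.25 (1.16 to 1.35). Upward calls were 4 of 35 (11.4%) in complex I and 1 of 38 (2.63%) in the other complexes, against 13.6% of all genes tested. Downward calls were 42.9% and 31.6%, against 13.9%. The differences between the complexes were not tested. With the GC and length trend removed, ATP5ME was at 0.417 (0.288 to 0.593). ATP5MF was then at 0.758 (0.714 to 0.805) and no longer past 1.5-fold.

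**Figure D5:**
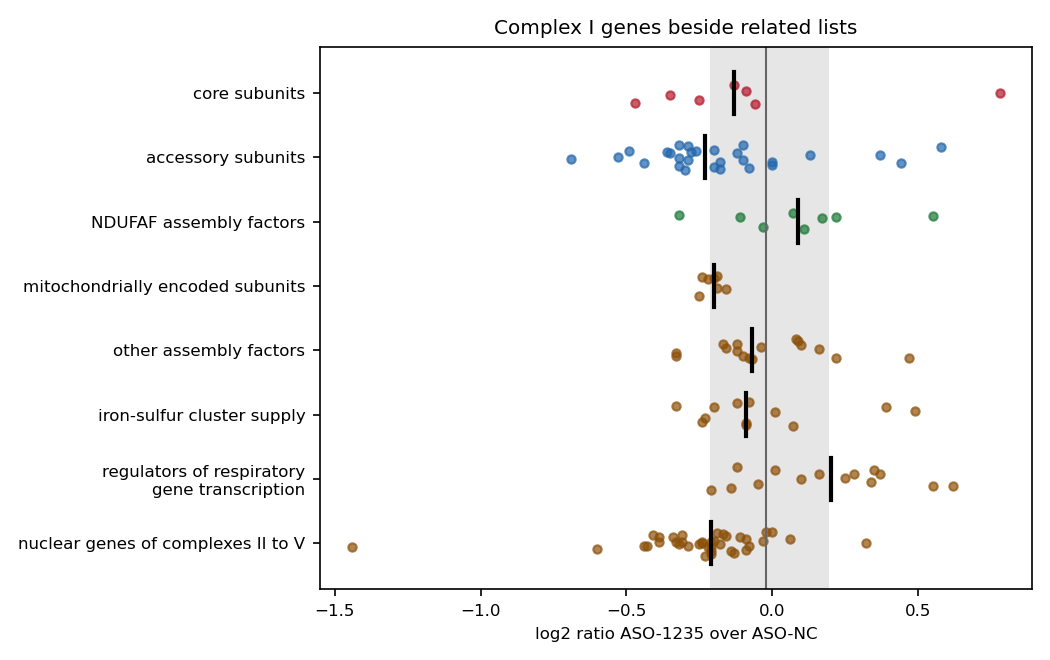
Log2 ratios of the genes at 1 CPM of each list (points, spread vertically for display) with black bars at the medians, from −0.23 (accessory subunits) to 0.20 (regulators). The grey band holds the middle 50% of all genes tested and the grey line their median of −0.02, and the 7 mitochondrially encoded subunits span −0.25 to −0.16.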

How the data were processed

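Per the labels' protocols, the libraries were made from bead-captured polyA+ RNA with random priming, 1 per group. The authors deposited raw counts per gene. Per the submitters' processing notes, STAR 2.7.11a and featureCounts 2.0.6 were used with hg38. The annotation release, the strand setting and how shared reads were treated are details not given in the sources used here. Of 62699 gene IDs with counts, 58206 were found in GENCODE 29 (GRCh38), used for positions, lengths and GC content.

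Libraries were scaled by TMM over all genes (edgeR 4.0.16, R 4.3.3), with factors of 0.965 (ASO-NC) and 1.04 (ASO-1235). Ratios have exact Clopper-Pearson 95% intervals given the sum of both counts, and sums of counts exact Poisson ones. The reads carry no molecular identifiers and are not independent molecules, so intervals cover counting error only. Genes at 1 CPM in at least 1 library were tested, 14291 in all. At these depths 1 CPM is 46.4 counts in the ASO-NC and 39.3 in the ASO-1235 library. A call took 1.5-fold with an interval that excluded 1, or 1.2-fold with one on halved counts that did. Log2 ratios used a prior count of 0.5.

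As an alternative, log2 ratios were regressed robustly (statsmodels 0.14.6) on splines of GC and log2 length, 5 degrees of freedom each, and the fit was subtracted. Other alternatives were DESeq2 1.42.0 size factors, upper quartile, total count, TMM without mitochondrially encoded genes, other minimum levels, a prior count of 5 and halved counts, and, added after the data were seen, TMM over genes at 1 CPM. The calculation was tested on simulated data. Members and lists were chosen with earlier results of these data known. Named were core subunits, the 5 highest and 5 lowest accessory subunits, the assembly factors, members past 1.5-fold and the extremes of other lists; further genes (among them NDUFB7, NDUFS5, NDUFAB1, OXA1L, ACAD9, ECSIT, TMEM126B, TMEM126A, TIMMDC1, COA1, TMEM186, TFB2M, NRF1, ISCA1) were chosen after their values were seen. Some genes that the rule selects are not reported here.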

Additional observations from a re-analysis of the deposited data

How the results depend on the processing

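Each group is a single library, so no alternative replaces replication, and no replicate could be left out. No paired analysis was possible because each group has 1 library. With scaling by total count, 5 members were lower at 1.2-fold in place of 16 (6.50% of all genes in place of 13.9%), 3 were higher at 1.5-fold in place of 1 (8.61% in place of 5.77%), the accessory median was −0.13 in place of −0.23, and NDUFS1 (1.03), NDUFS7 (1.01) and NDUFAF2 (1.05) lay above 1. With the GC and length trend removed, 0 members were lower at 1.5-fold, the accessory median was −0.16, and NDUFS3 (1.01), NDUFS7 (1.06), NDUFAF5 (0.952), NDUFAF8 (1.08) and NDUFB3 (0.984) changed side. NDUFB3 also lay at 0.993 with DESeq2 size factors. With a minimum of 5 CPM, 0 members were higher at 1.5-fold, since NDUFV2 is under it, and with TMM over genes at 1 CPM 2 were, NDUFV2 and NDUFB5. The number of members with a ratio below 1 ran from 26 (total count; 38.6% of all genes) to 33 (DESeq2 size factors; 54.1%). Of the 26 named members, 26 kept their direction and their side of the interval without mitochondrially encoded genes, with no minimum and with a prior count of 5. Depth limits the members with few counts, NDUFA7, NDUFA11 and NDUFA13, most.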
